A study of Mus musculus with 6 samples.

Results

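The genes described are the enzymes that make serine from a glycolytic intermediate and the enzymes that pass a carbon unit from it to folate. They were chosen by pathway membership, with earlier results of these data known. They number 10 of the 46983 genes listed: the serine synthesis enzymes *Phgdh*, *Psat1* and *Psph*, the cytosolic enzymes *Shmt1* and *Mthfd1*, and the mitochondrial enzymes *Shmt2*, *Mthfd2*, *Mthfd2l*, *Mthfd1l* and *Aldh1l2*. All 10 had a mean of at least 0.5 FPKM (fragments per kilobase of gene, scaled to the depth of the library) and were tested among 13312 genes.

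The bulk RNA-seq covered 3 WT and 3 *Hif1a* KO libraries of mouse splenic B cells on day 3 of culture under conditions that induce class switching to IgA. Both groups received LPS (5 μg/ml) together with TGF-β, IL-5 and BAFF (each 10 ng/ml), and LPS activates the cells while TGF-β and IL-5 direct switching to IgA. In the study's mice, floxed *Hif1a*, which encodes the oxygen-regulated subunit of HIF-1, is deleted by cre expressed from *Mb1* (*Cd79a*), a gene active from early B-cell stages onwards. The mice were on a C57BL/6 background, and the cells put into such cultures were follicular B cells sorted as CD21int CD23+. The WT group consists of littermates, either heterozygous for the floxed allele and carrying cre or homozygous without cre, and it is not stated from which of these genotypes each library was made. No age is given in the labels, which also do not say whether the replicates came from separate animals or cultures, so that p-values measure only the spread between these libraries.

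Phosphoglycerate dehydrogenase (PHGDH) opens serine synthesis by oxidising 3-phosphoglycerate, PSAT1 transfers an amino group from glutamate, and PSPH removes the phosphate. Serine hydroxymethyltransferases split serine into glycine and a carbon unit carried by tetrahydrofolate, SHMT1 in the cytosol and SHMT2 in mitochondria. In mitochondria the unit is oxidised by MTHFD2 or MTHFD2L and released as formate by MTHFD1L, or as CO2 by ALDH1L2, and in the cytosol MTHFD1 takes up formate for purine and thymidylate synthesis. Activated lymphocytes raise this pathway as they begin to divide, and ATF4, the transcription factor of the amino acid response, is a known activator of many of its genes.

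The stretches before the start sites of *Phgdh*, *Psat1*, *Shmt2* and *Mthfd2* are shown because these are the highly expressed members whose levels varied together most widely over the libraries. Each is 200 bases that end at the RefSeq start, or before the annotated exon that covers it, and hold no annotated exon (RefSeq windows, GRCm38.p6, all on the minus strand and written 5′ to 3′ along the gene), at chr3:98339991-98340190 for *Phgdh*, chr19:15925060-15925259 for *Psat1*, chr10:127522445-127522644 for *Shmt2* and chr6:83317607-83317806 for *Mthfd2*. The stretches of *Psat1* and *Mthfd2* lie within these genes as annotated, since other transcripts of both start farther upstream. Capitals mark matches to any of the motifs named after the sequences, on either strand.
Phgdh: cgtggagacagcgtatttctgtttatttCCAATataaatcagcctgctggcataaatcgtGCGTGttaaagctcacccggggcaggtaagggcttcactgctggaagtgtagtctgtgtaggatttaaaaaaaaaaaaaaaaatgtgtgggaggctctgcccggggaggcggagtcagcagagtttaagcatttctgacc
Psat1: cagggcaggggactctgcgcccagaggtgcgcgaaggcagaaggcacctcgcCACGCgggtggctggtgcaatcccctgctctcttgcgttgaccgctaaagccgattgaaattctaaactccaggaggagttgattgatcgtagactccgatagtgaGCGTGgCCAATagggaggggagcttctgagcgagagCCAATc
Shmt2: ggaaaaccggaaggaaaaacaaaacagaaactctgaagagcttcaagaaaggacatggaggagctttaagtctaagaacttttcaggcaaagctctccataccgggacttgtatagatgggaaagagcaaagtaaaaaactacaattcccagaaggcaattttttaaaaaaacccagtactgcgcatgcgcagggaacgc
Mthfd2: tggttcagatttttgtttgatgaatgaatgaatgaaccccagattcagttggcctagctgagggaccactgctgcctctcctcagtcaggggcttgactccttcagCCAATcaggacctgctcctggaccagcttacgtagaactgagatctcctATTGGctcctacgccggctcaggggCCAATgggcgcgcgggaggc

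The motifs searched on both strands of the 300-base RefSeq windows, from 250 bases before to 50 after each start, were TGATGNAA, the core of elements bound by ATF4 with C/EBP proteins, the HIF cores ACGTG and GCGTG, the E-box CACGTG, which contains ACGTG, and CCAAT, bound by NF-Y. RefSeq windows were matched for 9 of the 10 members, with 10 windows in all because *Psat1* has a pair of starts; *Aldh1l2* was not matched. GCGTG was found in 9 of the 10 windows and in 32.4% of all 32851 windows of that length, and CCAAT in 6 of the 10 and in 37.4% of all windows. ACGTG was found in 3 of the 10 windows, those of *Psph*, *Mthfd1l* and the other *Psat1* start, and in 19.6% of all windows. No member window held TGATGNAA or CACGTG, which were found in 3.97% and 7.15% of all windows. In the stretches shown, *Mthfd2* held 3 CCAAT matches and neither HIF core, while *Shmt2* held no match to any of the 5 motifs. These matches are letters in a window and not evidence of binding.

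The libraries held 25.0 to 37.2 M reads. *Hif1a* itself was at 36.5, 49.8 and 45.8 FPKM in WT replicates 1, 2 and 3 and at 46.5, 45.6 and 52.8 in KO replicates 1, 2 and 3, a log2 fold change of 0.14 (SE 0.12, limma adjusted p = 0.701), and of 0.012 without WT replicate 1 (adjusted p = 0.939). The groups overlapped, and FPKM over the whole gene does not check a deletion of part of it. WT replicate 1 stood with the KO libraries and apart from the other WT libraries: on the first principal component of all tested genes, which held 54.7% of the variance, WT replicates 2 and 3 were at 26.2 and 25.9, WT replicate 1 was at -15.7 and the KO libraries were between -19.5 and -7.10. Comparisons are therefore given with all 6 libraries and without WT replicate 1. The latter fit omits the WT library that resembled the KO libraries, a choice that favours differences between the groups. Its SEs and adjusted p-values are descriptive and do not test the genotype. Of the 6 B-cell markers, *Pax5* and *Ms4a1* were at 428 to 607 and 326 to 445 FPKM. *Cd79a*, the highest of the 6 by mean, ranged from 498 to 1203 FPKM, with the top value in WT replicate 1. *Cd79b* was at 692, 432 and 410 FPKM in WT replicates 1, 2 and 3 and at 589 to 734 in KO. It was the only 1 of the 6 called without WT replicate 1 (0.65, limma adjusted p = 0.0188). All 7 T and NK cell markers together summed to 0.949 to 1.47 FPKM.

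The question asked of the comparison was whether B cells without HIF-1α differ in serine and folate enzyme transcripts during IgA class switching. No member was called with all 6 libraries, although 9 of the 10 had a lower mean in the *Hif1a* KO cells. In those 9, WT replicates 2 and 3 were the highest libraries, and WT replicate 1 was at 0.836 to 1.04 times the KO mean. Without WT replicate 1, 8 of the 10 were called lower in the KO cells, as were 5.75% of all tested genes. The log2 fold changes of these 8 were -0.46 to -2.70, led by *Aldh1l2*, *Mthfd2* and *Shmt2*. *Shmt1* was also lower in that fit (-0.37) but was not called. Leaving out any other library gave 0 calls among the 10. The fit without WT replicate 1 drops the WT library that stood with the KO libraries, so its calls are descriptive. *Mthfd2l*, a paralog of *Mthfd2*, stayed near 1 FPKM in every library.

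The summed level of the 10 genes was 729, 1367 and 1391 FPKM in WT replicates 1, 2 and 3 against 776, 683 and 697 in KO replicates 1, 2 and 3. WT replicate 1 thus lay between the KO libraries, and the other WT libraries lay above all of them. In bulk RNA, a smaller share of cells with a transcript and less of it per cell cannot be told apart.

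**Figure D1:**
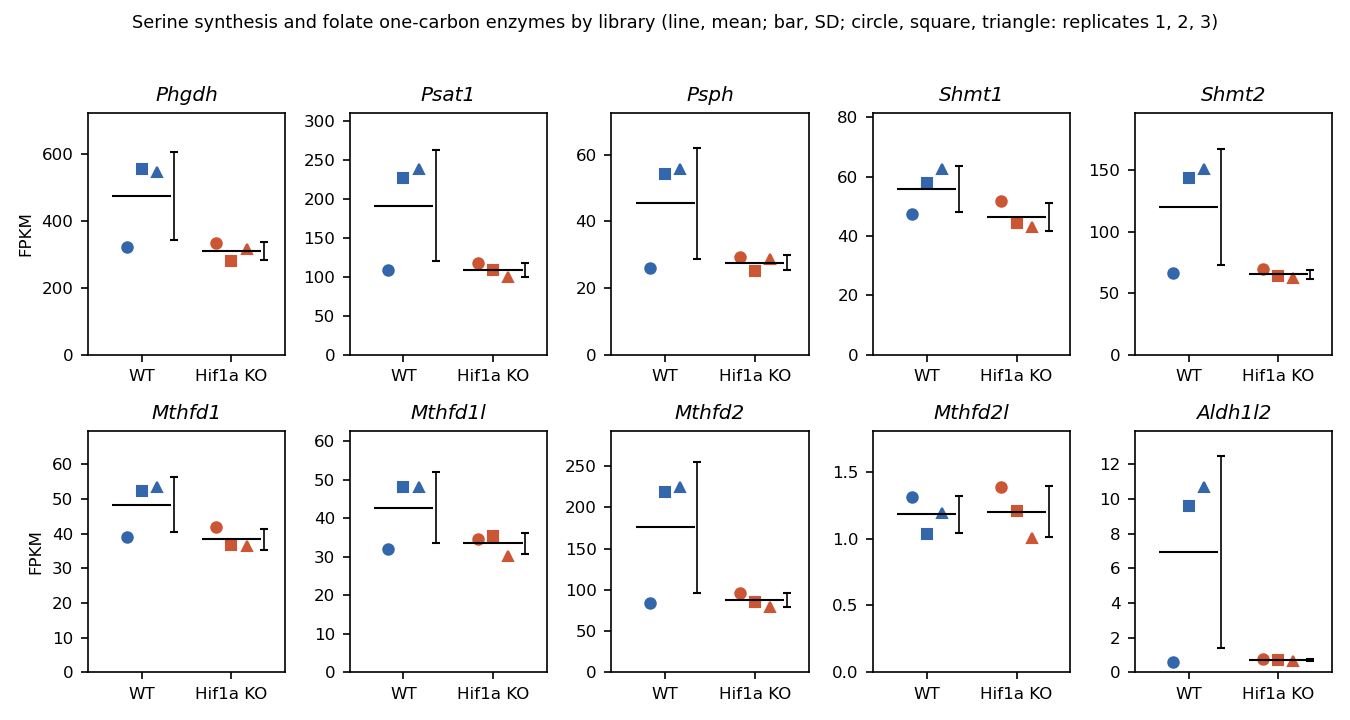
Each panel plots the FPKM of 1 gene (vertical axis, linear from 0) in the 3 WT libraries (blue) and the 3 *Hif1a* KO libraries (red). Circles, squares and triangles are replicates 1, 2 and 3, the horizontal line is the group mean and the bar is the SD. The blue circle lies at the level of the red points in every panel except that of *Mthfd2l*, where all 6 points mix between 1.003 and 1.39 FPKM.

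With all 6 libraries, 0 of the 13312 genes (0.0%) were called by limma at an adjusted p under 0.05. The smallest adjusted p over all genes was 0.321, and 929 genes had an unadjusted p under 0.05. Of the members, 6 had an unadjusted p under 0.05 and were lower in KO, against 599 of all genes (4.5%). The median log2 fold change of the members was -0.60 and that of all tested genes -0.028. For none of the 10 did every KO library lie below every WT library, an order that 803 genes (6.03%) had. When WT replicate 1 was left out, 8 of the 10 members were called lower, against 766 of all genes, and the median was -0.90 for the members and -0.050 for all genes. In that fit, 485 genes were called higher, none of them a member.

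WT replicates 2 and 3 were the highest libraries in 4059 of the tested genes (30.5%) and in 9 of the members. In 6 members, and in 2.43% of all tested genes, the lower of these libraries was at least 1.5 times the highest of the other 4, and in 3 members (*Aldh1l2*, *Mthfd2* and *Shmt2*) and 1.06% of genes it was at least 2 times that level. These orders describe the libraries and carry no test, because they follow the libraries themselves and not the study's groups.

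The first enzyme, *Phgdh* (ENSMUSG00000053398, chr3:98313170-98339990 in GRCm38, minus strand), had the highest level of the 10. It was at 323, 555 and 545 FPKM in WT replicates 1, 2 and 3 and at 333, 280 and 316 in KO replicates 1, 2 and 3. WT replicate 1 lay between the KO libraries, so that the groups overlapped. The means were 475 ± 131 in WT and 310 ± 26.9 in KO (SD, n = 3 each). This is a log2 fold change of -0.58 (95% interval -1.07 to -0.078, limma adjusted p = 0.626) on the log2(FPKM + 1) scale used for every gene. It was -0.83 without WT replicate 1 (SE 0.084, adjusted p = 0.00641). Of its 50-base stretches, 47.8% also occur in other genes, mainly processed copies such as *Gm7901*, which was at 2.11 to 4.73 FPKM, so its reads may be divided among these copies.

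The next enzyme, *Psat1* (ENSMUSG00000024640, chr19:15904678-15947337, minus strand), was at 109, 227 and 239 FPKM in WT replicates 1, 2 and 3 and at 118, 109 and 99.3 in KO replicates 1, 2 and 3. Again WT replicate 1 lay among the KO libraries while the other WT libraries were at least 1.93 times any KO library. Its log2 fold change was -0.73 (95% interval -1.41 to -0.056, adjusted p = 0.626), and -1.09 (SE 0.082, adjusted p = 0.00308) without WT replicate 1.

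*Psph* (ENSMUSG00000029446, chr5:129765558-129787449, minus strand), the last step, was at a lower level, with 26.1, 54.4 and 55.7 FPKM in WT replicates 1, 2 and 3 against 29.3, 25.0 and 28.6 in KO replicates 1, 2 and 3. As for *Phgdh*, WT replicate 1 lay inside the KO range. This gave a log2 fold change of -0.62 (95% interval -1.28 to 0.035, adjusted p = 0.626) with all libraries and -0.97 (SE 0.081, adjusted p = 0.00437) without WT replicate 1. On the opposite strand, *Cct6a*, a subunit of the TRiC chaperonin, shares 8.82% of the 50-base stretches of *Psph*. It was at 242 to 297 FPKM, and without a stated strand option reads of the shared stretch cannot be assigned to either gene.

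Of the cytosolic enzymes, *Shmt1* (ENSMUSG00000020534, chr11:60788104-60811718, minus strand) was at 47.3, 57.7 and 62.6 FPKM in WT replicates 1, 2 and 3 and at 51.7, 44.3 and 42.9 in KO replicates 1, 2 and 3. The lower of WT replicates 2 and 3 exceeded the highest other library by a factor of only 1.12. The log2 fold change was -0.26 (95% interval -0.55 to 0.025, adjusted p = 0.626), and *Shmt1* was not called without WT replicate 1 either (-0.37, adjusted p = 0.0618). *Mthfd1* (ENSMUSG00000021048, chr12:76255298-76319803, plus strand), a trifunctional enzyme, was at 39.1, 52.2 and 53.5 FPKM in WT replicates 1, 2 and 3 and at 41.9, 36.7 and 36.4 in KO replicates 1, 2 and 3. The groups overlapped through WT replicate 1 and KO replicate 1. Its log2 fold change was -0.31 (95% interval -0.62 to -0.0057, adjusted p = 0.626), and -0.46 (SE 0.078, adjusted p = 0.0242) without WT replicate 1.

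Among the mitochondrial enzymes, *Shmt2* (ENSMUSG00000025403, chr10:127517123-127522444, minus strand) was at 65.9, 143 and 151 FPKM in WT replicates 1, 2 and 3 and at 69.4, 64.2 and 61.8 in KO replicates 1, 2 and 3. The 3 KO libraries were within a CV of 5.90%, the smallest of the 10 genes, and WT replicate 1 lay inside their range. This gave a log2 fold change of -0.78 (95% interval -1.49 to -0.074, adjusted p = 0.626), and -1.16 (SE 0.068, adjusted p = 0.00141) without WT replicate 1.

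*Mthfd2* (ENSMUSG00000005667, chr6:83305691-83325908, minus strand), the dehydrogenase known for its low level in most adult tissues and its rise in dividing cells, was at 83.7, 218 and 225 FPKM in WT replicates 1, 2 and 3. In KO replicates 1, 2 and 3 it was at 96.4, 85.7 and 79.6 FPKM. WT replicate 1 was the second lowest of the 6 libraries. The log2 fold change was -0.87 (95% interval -1.74 to -0.013, adjusted p = 0.626), and -1.34 (SE 0.088, adjusted p = 0.00214) without WT replicate 1. No 50-base stretch of *Mthfd2* occurs in another gene.

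Its paralog *Mthfd2l* (ENSMUSG00000029376, chr5:90931117-91021368, plus strand) was at 1.31, 1.04 and 1.19 FPKM in WT replicates 1, 2 and 3 and at 1.39, 1.21 and 1.003 in KO replicates 1, 2 and 3, which rest on 57 to 93 reads a library. The groups mixed, and WT replicates 2 and 3 were not the highest libraries. Its log2 fold change was 0.010 (95% interval -0.27 to 0.30, adjusted p = 0.979), and 0.054 (adjusted p = 0.811) without WT replicate 1. The interval covers the log2 fold change of *Shmt1* (-0.26), so a difference of that size on this scale was not excluded. With 1 FPKM added, it would stand for a larger change in FPKM at this low level.

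*Mthfd1l* (ENSMUSG00000040675, chr10:3973118-4167081, plus strand), the mitochondrial formate synthetase, was at 32.1, 48.1 and 48.0 FPKM in WT replicates 1, 2 and 3 and at 34.6, 35.5 and 30.3 in KO replicates 1, 2 and 3. This gave a log2 fold change of -0.32 (95% interval -0.71 to 0.063, adjusted p = 0.626), and -0.51 (SE 0.081, adjusted p = 0.01995) without WT replicate 1. WT replicate 1 lay between the KO libraries here as well.

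*Aldh1l2* (ENSMUSG00000020256, chr10:83487450-83534140, minus strand), which oxidises formyl-tetrahydrofolate to CO2, varied over the widest range of the 10 genes. It was at 0.597, 9.59 and 10.7 FPKM in WT replicates 1, 2 and 3 and at 0.787, 0.696 and 0.660 in KO replicates 1, 2 and 3. WT replicate 1 was the lowest of all 6 libraries, and the values below 1 FPKM rest on 47 to 57 reads a library. The log2 fold change was -1.77 (95% interval -3.47 to -0.059, adjusted p = 0.626), and -2.70 (SE 0.10, adjusted p = 0.000556) without WT replicate 1. In FPKM, the KO mean was 0.0704 times the WT mean without replicate 1, a larger change than on the scale with 1 FPKM added. *D10Wsu102e*, on the opposite strand, shares most of the 13.6% of 50-base stretches of *Aldh1l2* that occur elsewhere. It was at 30.1 to 41.4 FPKM and was lowest in WT replicates 2 and 3, where *Aldh1l2* was highest.

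Exact permutation tests of 3 against 3 libraries gave two-sided p-values of 0.2 to 0.4 for the other 9 genes and 0.9 for *Mthfd2l*, and such a test cannot go below 0.1. The CV over the WT libraries was 11.8% to 79.6%, and over the KO libraries 5.90% to 16.0%.

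**Figure D2:**
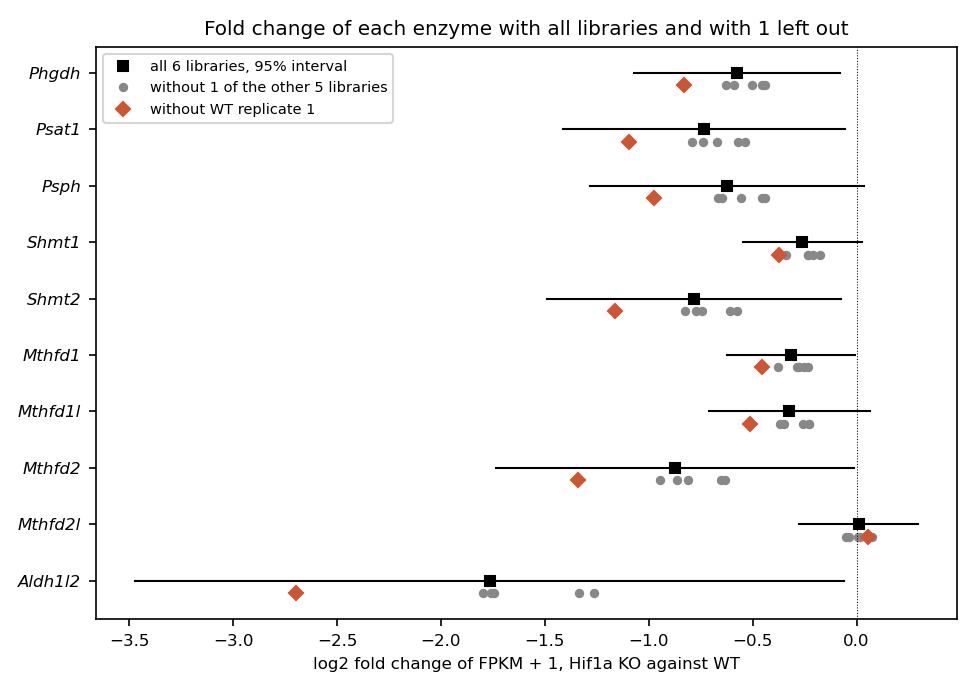
The horizontal axis is the log2 fold change of FPKM + 1 in *Hif1a* KO against WT, with a row for each gene. Squares with lines are the estimates and 95% intervals with all 6 libraries, red diamonds the estimates without WT replicate 1, and grey circles those without each of the other 5 libraries. The diamonds lie farthest to the left for 9 genes, at -2.70 for *Aldh1l2* and -1.34 for *Mthfd2*, while those of *Mthfd2l* stay near 0.

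Paralogs, and enzymes of matching steps in the mitochondria and the cytosol, were compared as ratios within a library, in which the scaling between libraries cancels. The ratio of *Shmt2* to *Shmt1* was 1.39, 2.48 and 2.41 in WT replicates 1, 2 and 3 against 1.34, 1.45 and 1.44 in KO replicates 1, 2 and 3. *Shmt2* was thus the higher of the paralogs in every library, and more so in WT replicates 2 and 3. As log2 ratios, with 0.1 FPKM added, the means were 1.02 ± 0.47 in WT and 0.50 ± 0.061 in KO (SD, n = 3 each), a difference of -0.52 (exact permutation p = 0.3, adjusted over 4 ratios 0.533) and of -0.79 without WT replicate 1.

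*Mthfd2* exceeded *Mthfd2l* 59.3, 192 and 174 times in WT replicates 1, 2 and 3, against 64.9, 65.5 and 72.2 times in KO replicates 1, 2 and 3. The log2 ratios differed by -0.90 (exact permutation p = 0.4, adjusted 0.533) and by -1.44 without WT replicate 1. The ratio of *Mthfd2* to *Mthfd1* was 2.14, 4.17 and 4.20 in WT replicates 1, 2 and 3 against 2.30, 2.33 and 2.18 in KO replicates 1, 2 and 3, and the log2 ratios differed by -0.56 (exact permutation p = 0.4, adjusted 0.533) and by -0.88 without WT replicate 1. By contrast, the ratio of *Mthfd1l* to *Mthfd1* kept within 0.821 to 0.965 in all 6 libraries. The difference of its log2 values was -0.011 (exact permutation p = 1.0) with all libraries and -0.060 without WT replicate 1.

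**Figure D3:**
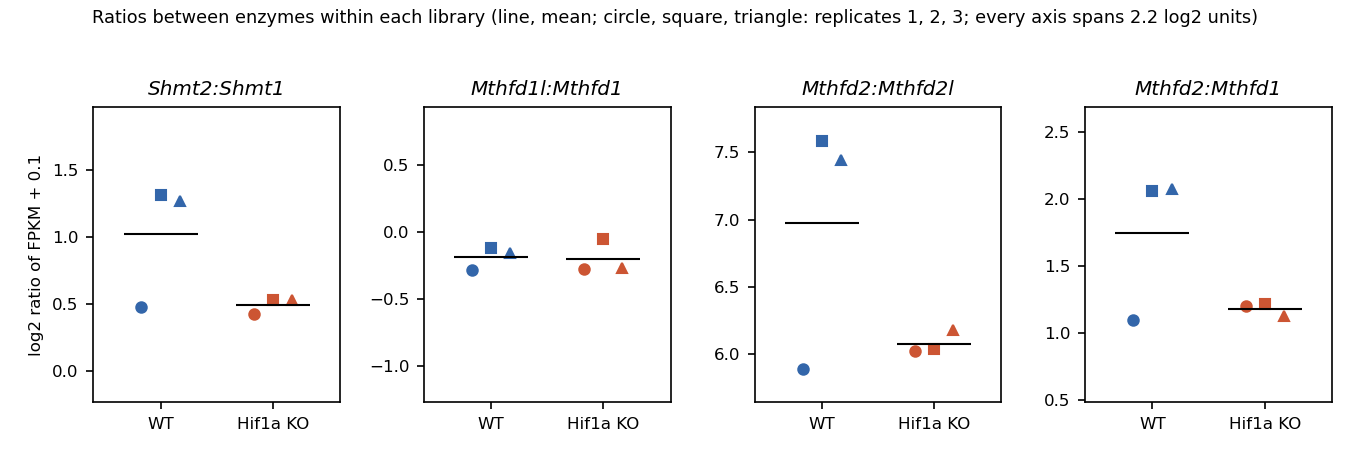
The vertical axis is the log2 ratio of FPKM + 0.1 between the enzymes named above each panel, with WT libraries in blue, *Hif1a* KO libraries in red, replicates 1, 2 and 3 as circle, square and triangle and the mean as a line. Every panel spans the same number of log2 units. In the panels of *Shmt2*, *Mthfd2* with *Mthfd2l* and *Mthfd2* with *Mthfd1*, WT replicates 2 and 3 lie above the other 4 libraries, and in that of *Mthfd1l* with *Mthfd1* all lie between -0.28 and -0.051.

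The order of levels between genes depended on the length by which the reads were divided. The length behind the deposited values was recovered for each member and equalled the mean length of the annotated transcripts in 8 of the 10, for example 907 bases for *Phgdh* and 863 for *Mthfd2*, against 1893 and 2085 for their longest coding transcripts. For *Shmt2* and *Mthfd1* it was 2305 and 3324 bases, close to their longest coding transcripts. As deposited, the mean over all 6 libraries was 392 FPKM for *Phgdh*, 150 for *Psat1*, 131 for *Mthfd2*, 92.6 for *Shmt2*, 51.1 for *Shmt1*, 43.3 for *Mthfd1*, 38.1 for *Mthfd1l*, 36.5 for *Psph*, 3.84 for *Aldh1l2* and 1.19 for *Mthfd2l*.

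Divided by the longest coding transcript, the mean was 188 FPKM for *Phgdh*, 93.2 for *Shmt2*, 70.6 for *Psat1*, 54.4 for *Mthfd2*, 44.4 for *Mthfd1*, 29.9 for *Mthfd1l*, 20.9 for *Psph*, 19.5 for *Shmt1*, 1.52 for *Aldh1l2* and 1.05 for *Mthfd2l*. *Shmt2* moved from rank 4 to rank 2 and *Shmt1* from rank 5 to rank 8. The ratio of *Shmt2* to *Shmt1* became 3.54 to 6.54 on this length, and that of *Mthfd2* to *Mthfd1* 0.864 to 1.69 in place of 2.14 to 4.20. In the deposited order, the range over the libraries of each gene overlapped that of the next, except between *Phgdh* and *Psat1* and between *Psph* and *Aldh1l2*. The ratio of *Mthfd2* to *Mthfd2l* became 27.6 to 89.3 in place of 59.3 to 192. Ratios of FPKM between groups do not depend on the length, whereas fold changes with 1 FPKM added do so for genes of low level such as *Aldh1l2*.

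Genes around these enzymes were described from lists that shared no gene with them, and none was called with all 6 libraries. Below, a list gene said to fall or rise without WT replicate 1 was called in that fit (adjusted p under 0.05). In the list of folate cycle and transport genes, 11 of 15 were tested, 10 with a lower mean in KO. The median log2 fold change of the 11 was -0.038, against -0.028 over all tested genes. Since the median of all genes was itself below 0, counts of lower means in the lists are descriptive and carry no test. *Tyms*, thymidylate synthase, which uses the carbon unit to make dTMP, fell by 0.71 on the log2 scale without WT replicate 1 (adjusted p = 0.00559). *Slc19a1*, the reduced folate carrier, was at 17.4, 19.0 and 18.6 FPKM in WT replicates 1, 2 and 3 and at 16.1, 14.7 and 17.03 in KO replicates 1, 2 and 3, without overlap, and was not called in either fit (-0.19 and -0.23, adjusted p = 0.626 and 0.124).

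All 6 purine synthesis genes had a lower mean in KO (median -0.22). Without WT replicate 1, *Ppat*, *Gart* and *Atic* were called lower, by 0.32, 0.49 and 0.35. *Pfas* was also lower in that fit but was not called (-0.48, limma adjusted p = 0.0685). GART and ATIC use the formyl group of folate. Of the glycine cleavage genes, 3 of 4 were tested, and 1, *Gcsh*, fell without WT replicate 1 (-0.32, adjusted p = 0.0443). *Gldc*, its decarboxylase, was at 0 to 0.0258 FPKM.

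Among the genes that carry or use serine and glycine, 11 of 12 were tested, 8 with a lower mean in KO. Their median was -0.057, against -0.028 over all tested genes. With WT replicate 1 left out, the exchanger *Slc1a4* and the glycine transporter *Slc6a9* fell, by 2.00 and 2.30. *Slc6a9* was at 0.619, 6.28 and 7.38 FPKM in WT replicates 1, 2 and 3 and at 0.658, 0.652 and 0.463 in KO replicates 1, 2 and 3. *Slc1a5*, the most abundant of this list, was at 206 to 246 FPKM and not called in either fit (adjusted p = 0.762 and 0.409).

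Of the methionine cycle and transsulfuration genes, 7 of 10 were tested, 6 with a lower mean in KO (median -0.22). *Cth*, which makes cysteine from cystathionine, was at 5.54, 69.6 and 62.8 FPKM in WT replicates 1, 2 and 3 and at 6.26, 6.75 and 5.03 in KO replicates 1, 2 and 3, again with WT replicate 1 among the KO libraries. Without WT replicate 1, *Cth* fell by 3.27, *Mtr*, methionine synthase, by 0.39 and *Mat2a*, the synthase of S-adenosylmethionine, by 0.33. *Mtrr* and *Ahcy* had no overlap between the groups, with log2 fold changes of -0.22 and -0.051, or -0.28 and -0.058 without WT replicate 1, and were not called in either fit.

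Of the ATF4 program, 11 of 12 genes were tested. All 11 had a lower mean in KO and had WT replicates 2 and 3 as the highest libraries, and their median log2 fold change was -0.89, or -1.36 without WT replicate 1. *Atf4* itself was at 149, 229 and 233 FPKM in WT replicates 1, 2 and 3 and at 144, 133 and 136 in KO replicates 1, 2 and 3. WT replicate 1 lay just above the KO libraries, and the log2 fold change was -0.53 (limma adjusted p = 0.626), or -0.75 without WT replicate 1 (adjusted p = 0.0039). *Asns*, asparagine synthetase, was at 27.5, 142 and 142 FPKM in WT replicates 1, 2 and 3 and at 28.4, 26.5 and 27.0 in KO replicates 1, 2 and 3, and *Sesn2*, a leucine sensor, was at 11.0, 32.5 and 30.0 and at 10.4, 10.6 and 10.2. Without WT replicate 1, 10 of the 11 fell and *Ddit3* was not called (-0.36, adjusted p = 0.158).

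Of the 5 glycolysis genes around 3-phosphoglycerate, the substrate of PHGDH, 2 (*Pgk1* and *Pgam1*) had WT replicates 2 and 3 as the highest libraries. *Pgk1* was at 242, 269 and 260 FPKM in WT replicates 1, 2 and 3 and at 224, 219 and 205 in KO replicates 1, 2 and 3. *Pgam1* was at 96.3, 102.7 and 102.4 and at 87.5, 84.8 and 84.4, and *Eno1* at 517, 484 and 465 and at 367, 420 and 316. In these 3 genes every KO library was below every WT library, WT replicate 1 included. The same order was seen in *Atf4* and *Sesn2*, and in 6.03% of all tested genes. The log2 fold changes of *Pgk1*, *Pgam1* and *Eno1* were -0.25, -0.23 and -0.42 (limma adjusted p = 0.626 each). In the fit without WT replicate 1, *Pgk1* and *Pgam1* fell (-0.29 and -0.26, adjusted p = 0.0413 and 0.0355), and *Eno1* was not called (-0.38, adjusted p = 0.102). Whether the enzymes of serine synthesis differ from these genes in their response was not tested. *Bpgm* had a higher mean in KO, with WT replicate 1 among the KO libraries. It rose in the fit without WT replicate 1 (0.51, adjusted p = 0.0234). *Gapdh*, which has many processed copies, was at 6.33 to 101 FPKM and is uncertain.

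**Figure D4:**
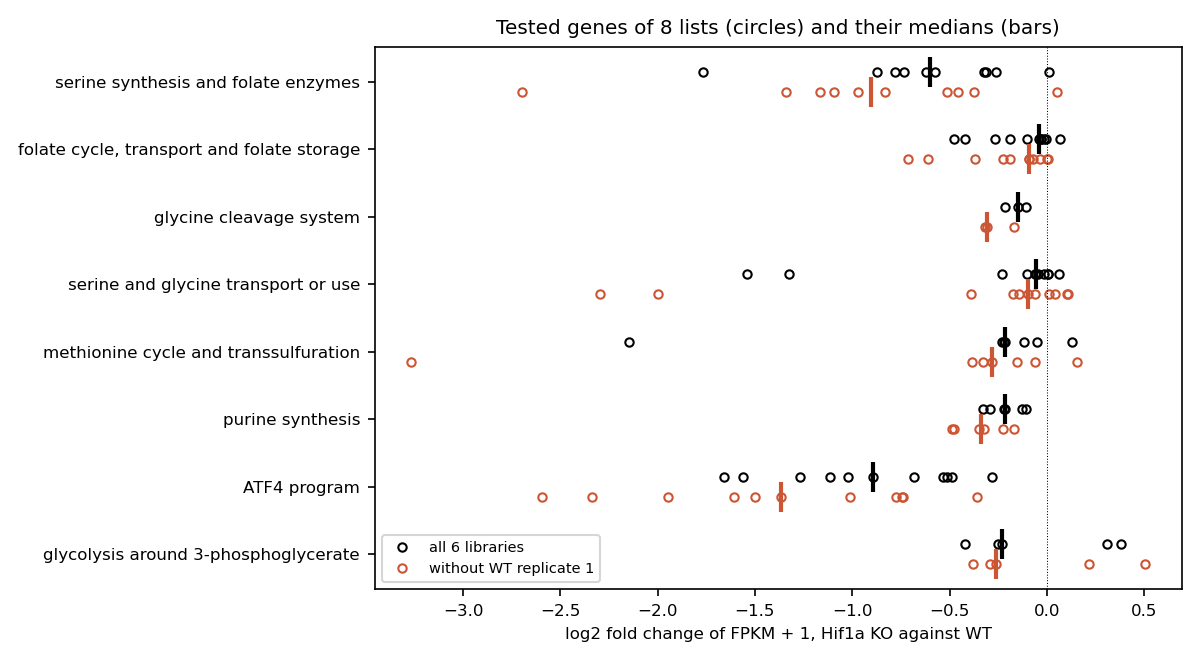
The horizontal axis is the log2 fold change of FPKM + 1 in *Hif1a* KO against WT for each tested gene (circles) of the serine and folate enzymes and of 7 other lists (vertical axis), with all 6 libraries in black and without WT replicate 1 in red, and bars are medians. The medians of the serine and folate enzymes (-0.60 and -0.90) and of the ATF4 program (-0.89 and -1.36) lie farther from 0 than those of the other lists.

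Summed markers of macrophages and erythroid cells were highest in WT replicates 2 and 3, like the enzymes. Those of other cells had other orders. The 8 macrophage markers, 5 of them tested, summed to 73.6, 167 and 118 FPKM in WT replicates 1, 2 and 3 and to 67.4 to 79.1 in KO. *Adgre1* made up most of this sum. Of the 5 tested, 4 had WT replicates 2 and 3 as the highest libraries, but not *Mrc1* (0.714 to 1.12 FPKM). *Lyz2* was at 6.18, 58.3 and 26.2 FPKM in WT replicates 1, 2 and 3 and at 0.5996, 2.23 and 3.70 in KO replicates 1, 2 and 3. For *Lyz2*, every KO library was below WT replicate 1. The 4 erythroid markers summed to 0.756, 12.8 and 9.38 FPKM in WT replicates 1, 2 and 3 and to 0.803 to 1.49 in KO. The 5 neutrophil markers summed to 31.3 FPKM in WT replicate 1, mainly *S100a8* and *S100a9*, and to at most 0.442 elsewhere. The 5 dendritic cell markers summed to 11.96 to 14.9 FPKM in WT and to 8.67 to 10.3 in KO. The sum of the 5 plasma cell markers went the other way, with 590, 325 and 297 FPKM in WT replicates 1, 2 and 3 against 408 to 754 in KO. This sum was mainly *Xbp1* and *Jchain*. Of the 4 tested, 3 had a higher mean in KO and 1, *Sdc1*, a lower mean (3.45 against 3.89 FPKM in WT). The part of these cells in the levels of the serine and folate enzymes was not tested.

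Over the 6 libraries, the mean standardised profile of the 10 genes had a Pearson r of 0.965 to 0.996 with 9 of them and of -0.14 with *Mthfd2l*. The profile contains each of these genes, so their r values are raised by construction. Among the 9267 other genes with a mean of at least 5 FPKM, those most alike included *Thada* (r = 0.9995), *Gm21811* (r = 0.998), *Pdcd6ip* (r = 0.997) and *Afmid* (r = 0.997). *Pdcd6ip*, the most abundant of these, was at 97.5, 123 and 125 FPKM in WT replicates 1, 2 and 3 and at 103, 97.5 and 94.7 in KO replicates 1, 2 and 3. These r values describe 6 points that share their libraries and that are spread mainly by WT replicates 2 and 3.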

How the data were processed

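RNA-seq FPKM values of 6 libraries were used. Per the study's methods, the authors filtered the reads, aligned them to mm10 (GRCm38) with TopHat, counted reads per gene with HTSeq, divided each count by gene length and depth to give FPKM, and deposited 1 FPKM column per library. The annotation release, strand option and handling of reads with several alignments are not given in the sources used here.

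Symbols and coordinates came from GENCODE vM21, which held 46488 of the 46983 IDs. The worth of 1 read was recovered from the FPKM steps (25715 of 25717 genes above 0 gave whole reads, within 0.02), and gave 25.0 to 37.2 M reads per library. Genes with a mean of at least 0.5 FPKM were tested with limma 3.58.1 in R 4.3.3 (lmFit, eBayes with trend) on log2(FPKM + 1), a pseudocount of 1, with Benjamini-Hochberg adjustment over 13312 genes and a call at adjusted p under 0.05. On this scale changes of genes with low values are understated. Ratios had 0.1 FPKM added and exact permutation tests over 20 splits. In simulated data for *Hif1a* KO against WT over 13312 genes with 200 changed, log2 changes of 0.5, 1 and 2 were called in 26.0%, 77.5% and 94.0%. Of the calls made there, 7.14%, 4.32% and 4.08% fell on unchanged genes. With all 6 real libraries, *Mthfd2* (-0.87, SE 0.36) and *Aldh1l2* (-1.77, SE 0.72) were not called. The simulated rates may thus be too high for genes with so wide a spread. The noise was also drawn separately for each gene and library. It held no shift of 1 library shared by many genes, such as that of WT replicate 1, so the rates may not hold for the real libraries.

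The members and lists were chosen with earlier results of these data known. Named genes were all members, list genes called, without overlap of the groups or of highest level, the 5 genes most alike and *Hif1a*. *Gldc*, *Ddit3*, *Gapdh*, *Pfas*, *S100a9*, *Mrc1*, *Sdc1*, *Gm7901*, *Cct6a* and *D10Wsu102e* were named after their values were seen. Some single-gene results are not reported here. Each library was left out in turn, and other pseudocounts, filters, scalings, library weights, voom on the recovered reads and a replicate block were tried. Summaries were made with pandas 2.3.3 and numpy 2.4.6 under Python 3.11.15, and figures with matplotlib 3.10.9.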

Additional observations from a re-analysis of the deposited data

How the results depend on the processing

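The calls rested on WT replicate 1. With each library left out in turn, 0 to 1251 genes and 0 to 8 of the serine and folate enzymes were called by limma, the upper numbers without WT replicate 1. Without KO replicate 1, 1 gene was called, and none without each of the other libraries. With library weights, in which WT replicate 1 had a weight of 0.238 and the others 0.664 to 2.42, 1449 genes (908 lower) and 8 of the enzymes were called. No gene was called with a pseudocount of 0.1, either other filter, median-ratio or quantile scaling, eBayes without trend or voom on the recovered reads.

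The direction held in every alternative for the enzymes other than *Mthfd2l*, with log2 fold changes of -2.70 to -1.26 for *Aldh1l2*, -1.34 to -0.63 for *Mthfd2*, -1.16 to -0.57 for *Shmt2*, -1.09 to -0.53 for *Psat1*, -0.97 to -0.44 for *Psph* and -0.83 to -0.44 for *Phgdh*. For *Mthfd1l*, *Mthfd1* and *Shmt1* they were -0.51 to -0.23, -0.46 to -0.23 and -0.37 to -0.18. Every alternative kept WT replicate 2 or 3, the highest libraries in all these enzymes. The direction therefore rests on those libraries, and its stability carries no test of the genotype. The log2 fold change of *Mthfd2l* was -0.050 to 0.076 with each library left out, and -0.038 without WT replicate 2. The log2 ratio of *Mthfd1l* to *Mthfd1* differed by -0.084 to 0.027, above 0 without WT replicate 2 (0.023), WT replicate 3 (0.0047), KO replicate 1 (0.027) or KO replicate 3 (0.023). The cause was not tested.

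After the group mean of each gene was subtracted, libraries with the same replicate number correlated at -0.099, 0.14 and -0.28. These values describe what is left within the groups and not the likeness of whole libraries. The numbers were therefore not taken as pairs, and with a replicate block 0 genes and 0 enzymes were called. Values of *Mthfd2l*, and of *Aldh1l2* in 4 libraries, rest on 47 to 93 reads each, which limits their precision, and intervals cover the spread of 3 libraries a group.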
